A study of Arabidopsis thaliana with 18 samples.

Results

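L-Kyn, L-kynurenine, is a small molecule that inhibits the synthesis of auxin from tryptophan, and its early effect was measured in intact root tips of Arabidopsis thaliana. The 6 libraries described were chosen by their titles, 3 of L-Kyn uncut tips at 3 h and 3 of mock uncut tips, out of 18 libraries in the study, and all 22093 loci of the count table were used. L-Kyn tips came from seedlings 7 days old that received 100 µM L-Kyn for 3 h. Mock tips came from seedlings of the same age, carry the treatment label mock and no time, and stand in the study's design text as an untreated control. Both groups were labelled as apical root meristem, neither was cut, and no genotype is given in the labels. Hours of treatment and time of harvest can therefore not be told apart from L-Kyn. The text on the treatment is incomplete, so how the compound was given is not stated, and the labels do not tell whether replicates came from different batches of plants. The p-values thus rest on library-to-library scatter that could be technical.

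Auxin is made in plants mainly along a short route in which the aminotransferases TAA1 and TAR2 turn tryptophan into indole-3-pyruvate and the YUCCA enzymes turn that into auxin. L-Kyn competes with tryptophan at the aminotransferases. Auxin binds the TIR1 and AFB receptors together with an Aux/IAA repressor, the repressor is degraded, and the auxin response factors (ARFs) it held are freed. Many Aux/IAA and GH3 genes are themselves switched on by auxin, so that their transcripts are widely used as readouts of the response, and in the root tip auxin is known for its peak around the quiescent centre and its part in keeping the stem cell niche.

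Reads on genes in the 6 libraries ran from 1289289 in L-Kyn replicate 2 to 4790142 in L-Kyn replicate 3, and from 2198427 to 3223903 in the mock libraries. L-Kyn replicate 2 is thus the shallowest, and 3 counts in it are 2.27 CPM (counts per 1000000 counts on tested genes, with TMM factors that adjust for composition), a floor that covers counting error only. Loci with counts numbered 17301 in mock replicate 3, the fewest of the 6 libraries, against 20709 and 19427 in mock replicates 1 and 2. In the L-Kyn libraries they numbered 19732, 17731 and 20100. Mock replicate 3 thus showed fewer loci than libraries with fewer counts, which limits what a 0 in it means. The columns of mock replicates 1 and 2 open the deposited table, while mock replicate 3 is the column directly before the L-Kyn uncut 3 h libraries. Genes of the root meristem were detected in all 6 libraries. SHR, a regulator of ground tissue identity made in the stele, had 50.6, 38.7 and 52.7 CPM in L-Kyn tips, against 50.6, 47.5 and 44.1 CPM in mock tips. PLT1, a transcription factor of the stem cell niche, had 16.7, 35.6 and 28.5 CPM in L-Kyn tips, against 34.9, 22.1 and 29.6 CPM in mock tips.

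Mock replicate 3 stood apart from the other mock libraries, and the comparison turns on it. Over 16354 genes the L-Kyn libraries correlated with each other at Spearman's rho of 0.939 to 0.976. Mock replicates 1 and 2 correlated at 0.939, and mock replicate 3 at 0.857 with replicate 1 and 0.808 with replicate 2. L-Kyn libraries correlated at 0.897 to 0.916 with mock replicate 3, at 0.883 to 0.927 with mock replicate 1 and at 0.833 to 0.893 with mock replicate 2, so mock replicate 3 was nearer to every L-Kyn library than to either of the other mock libraries. These values are descriptions across genes, which are not independent, and libraries of unlike depth enter them.

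**Figure D1:**
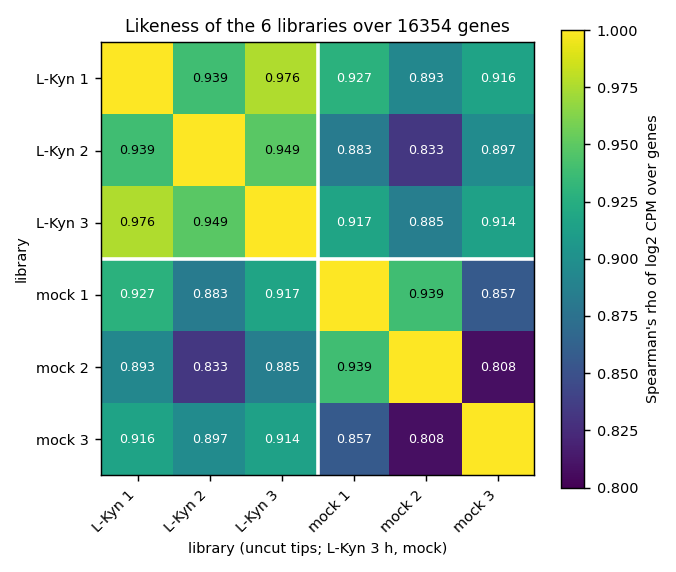
Spearman's rho of log2 CPM over 16354 genes for each pair of the 6 libraries of uncut tips, L-Kyn at 3 h first and mock after, as rows and columns; colour and cell text give rho. The lowest value, 0.808, is between mock 2 and mock 3, and the highest, 0.976, between L-Kyn 1 and L-Kyn 3.

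Counted by gene, mock replicate 3 differed by more than 2-fold from the mean of mock replicates 1 and 2 in 5776 genes, higher in 2475 and lower in 3301. The mean of the L-Kyn libraries differed that much from mock replicates 1 and 2 in 2859 genes and from mock replicate 3 in 3221. In 8550 genes (52.3%) the L-Kyn mean lay between mock replicate 3 and the mean of mock replicates 1 and 2. A single mock library is noisier than a mean of 3, which these counts do not take out. Values against mock replicate 3 alone or without it are therefore given beside many of the list medians and genes.

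No gene was called at an adjusted p of 0.05 by edgeR's quasi-likelihood test (0 of 16354, 0%). At an unadjusted p under 0.05 there were 501 genes higher in L-Kyn tips (3.06%) and 979 lower (5.99%), 1480 in all (9.05%). The lowest adjusted p was 0.0822. Values of the 3 L-Kyn libraries lay all above those of the 3 mock libraries in 1244 genes (7.61%) and all below in 1287 (7.87%). Fold changes are log2 of L-Kyn over mock throughout, and their median over all genes was -0.05. A value below 0 was found for 54.0% of the genes and one above 0 for 46.0%.

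The count of calls depended on the tool and on mock replicate 3. DESeq2 on the same genes called 118 (0.722%), 21 higher in L-Kyn tips (0.128%) and 97 lower (0.593%). In 70 of these the libraries of the groups did not overlap, which held for all 21 higher genes, and in the other 48, all lower, they did. Without mock replicate 3, edgeR called 452 of 15724 genes, 117 higher (0.744%) and 335 lower (2.13%), and 105 of the 118 DESeq2 genes were among them.

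Against mock replicate 3 alone, 0 of 15747 genes were called higher (0%) and 3 lower (0.0191%) by edgeR, with 1381 genes at an unadjusted p under 0.05 (8.77%) and 40 called by DESeq2. This fit held 7 libraries, with mock cut tips at 3 h lending their spread and the lone mock library assumed to vary like the others. The 3 called genes were GRP5, which encodes a glycine-rich protein, AT4G29020, annotated as another glycine-rich protein, and AT5G01870, annotated in the lipid-transfer protein family. GRP5 had 0.283, 2.27 and 0 CPM in L-Kyn tips, against 3.34, 0.461 and 190.4 CPM in mock tips. AT4G29020 had 0, 0 and 0.209 CPM in L-Kyn tips, against 0.910, 0.923 and 37.1 CPM in mock tips, and AT5G01870 had 0.283, 0 and 0 CPM in L-Kyn tips, against 0, 0 and 70.6 CPM in mock tips. All 3 genes were high in mock replicate 3 and near 0 in the other 5 libraries, so the calls describe that library, and they are of a single library.

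The 11 genes at the lowest adjusted p, named here after their values were seen, divide by what mock replicate 3 showed. LHY, a morning transcription factor of the circadian clock, had 10.7, 10.6 and 10.7 CPM in L-Kyn tips, against 1.52, 0.923 and 1.61 CPM in mock tips (log2 fold change 2.91 ± 0.57, standard error). GSTU24, a glutathione transferase that responds to foreign compounds, had 233, 373 and 326 CPM in L-Kyn tips, against 118, 87.2 and 96.3 CPM in mock tips (1.63 ± 0.27). Neither gene's groups overlapped, and mock replicate 3 was at the level of the other mock libraries in both. UMAMIT33, of a family of amino acid exporters, had 16.1, 34.1 and 18.6 CPM in L-Kyn tips, against 2.73, 6.46 and 2.58 CPM in mock tips, and ZIP2, of a family of metal transporters, had 21.5, 23.5 and 29.3 CPM in L-Kyn tips, against 6.67, 7.38 and 3.54 CPM in mock tips. Neither overlapped, with mock replicate 3 the lowest of the 6 libraries.

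GMI1, a gene of the SMC-like family that takes part in DNA repair, was lower in all L-Kyn libraries, with 1.13, 1.52 and 0.837 CPM in L-Kyn tips, against 7.88, 12.5 and 8.70 CPM in mock tips (-3.12 ± 0.58). FRB1 had 0.566, 0 and 0.418 CPM in L-Kyn tips, against 5.76, 8.31 and 3.87 CPM in mock tips, with no overlap either. In SDG21, annotated as a SET-domain protein, mock replicate 3 was lowest of the mock libraries, with 0.848, 0.758 and 1.26 CPM in L-Kyn tips, against 9.40, 20.3 and 3.87 CPM in mock tips. IND, a transcription factor known from the opening of the fruit, had 0, 0 and 0.209 CPM in L-Kyn tips. It had 10.9, 22.1 and 0.322 CPM in mock tips, so mock replicate 3 was near the L-Kyn values. In other libraries of the study IND was present, with 12.1 and 6.32 CPM in L-Kyn uncut tips at 6 h. Cut tips at 6 h had 12.9, 29.8 and 13.4 CPM with L-Kyn, against 22.2 and 19.0 CPM in mock. MEE38 had 31.7, 15.9 and 32.6 CPM in L-Kyn tips, against 217, 533 and 30.6 CPM in mock tips, RBCS1A, a small subunit of the photosynthetic enzyme Rubisco, had 0.283, 0 and 0 CPM in L-Kyn tips, against 91.3, 37.8 and 0 CPM in mock tips, and AT1G04684 had 0, 0 and 0 CPM in L-Kyn tips, against 54.0, 26.8 and 0 CPM in mock tips. In these 3 genes mock replicate 3 lay within or at the L-Kyn values, and the fold changes of RBCS1A and AT1G04684 are not bounds, as L-Kyn tips had 1 and 0 counts. Without mock replicate 3 all 11 genes were called by edgeR, with adjusted p between 1.01e-05 and 0.0272.

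The Aux/IAA genes, which encode the repressors degraded in the presence of auxin, lay mostly below mock in L-Kyn tips. Of the 28 with counts, 17 could be tested and 16 had a fold change below 0 (background 54.0%). Their median was -1.05 beside -0.05 for all genes. An unadjusted p under 0.05 was reached by 11, all lower (background 5.99%), no member reached an adjusted p of 0.05, and in 8 all L-Kyn libraries lay below all mock libraries (background 7.87%). The median was -0.78 against mock replicate 3 alone, where 14 of 19 were below 0 (background 48%), and -1.18 without it. Members are related genes in the same libraries and not replicates.

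IAA1, a fast auxin-responsive member, had 8.48, 0.758 and 2.09 CPM in L-Kyn tips, against 19.4, 20.3 and 22.6 CPM in mock tips, with a log2 fold change of -2.33 ± 0.71, an unadjusted p of 0.00378 and an adjusted p of 0.254. The mock libraries were alike and the L-Kyn libraries lower and more spread, replicate 1 being highest. IAA2 had 17.5, 7.58 and 9.21 CPM in L-Kyn tips, against 33.1, 19.4 and 31.9 CPM in mock tips (-1.27 ± 0.38). IAA4 had 13.6, 4.55 and 5.44 CPM in L-Kyn tips, against 18.19, 24.9 and 25.5 CPM in mock tips (-1.49 ± 0.49). IAA19, used as a marker of the auxin response, had 1.98, 0 and 0 CPM in L-Kyn tips, against 7.28, 6.46 and 5.48 CPM in mock tips, with no count in 2 of the L-Kyn libraries. In these 4 genes mock replicate 3 stood with the other mock libraries, and the fold changes against it alone were -2.45, -1.44, -1.64 and -2.81.

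IAA7 had 51.2, 45.5 and 40.6 CPM in L-Kyn tips, against 119.8, 86.8 and 68.0 CPM in mock tips, and IAA8 had 114, 69.8 and 86.6 CPM in L-Kyn tips, against 151, 153 and 115 CPM in mock tips. Both are expressed at a moderate level and their groups did not overlap, with a log2 fold change of -0.62 for IAA8. IAA13 and IAA33 completed the 8, at -1.05 and -1.48. The low values of IAA16 and IAA28 rested on mock replicates 1 and 2. IAA28, a repressor known from lateral root founder cells, had 13.6, 11.4 and 9.21 CPM in L-Kyn tips, against 39.4, 54.5 and 5.16 CPM in mock tips, and its fold change was 1.13 against mock replicate 3 alone and -2.04 without it. IAA16 had 76.9, 41.7 and 50.6 CPM in L-Kyn tips, against 98.2, 218 and 43.5 CPM in mock tips. IAA26 was the one tested member above 0, at 0.41.

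**Figure D2:**
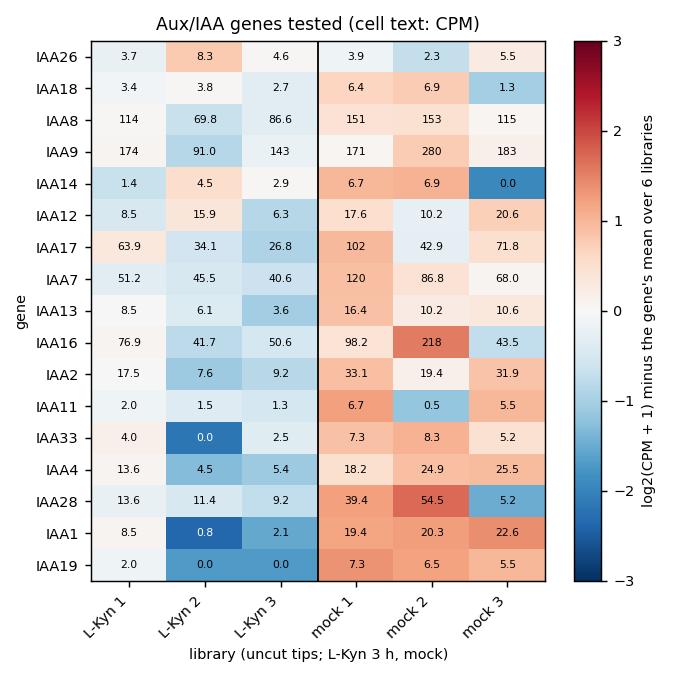
CPM of the 17 tested Aux/IAA genes (rows, by fold change) in the L-Kyn libraries at 3 h and the mock libraries (columns); cell text gives CPM and colour gives log2(CPM + 1) minus the gene's mean over the 6 libraries. IAA1, IAA2, IAA4 and IAA19 are lower in all L-Kyn libraries, while IAA28 and IAA14 are also low in mock 3.

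The GH3 genes, whose enzymes inactivate auxin by joining it to amino acids, overlapped between the groups. GH3.17 had 7.35, 15.2 and 4.18 CPM in L-Kyn tips, against 24.6, 11.5 and 24.8 CPM in mock tips (-1.30 ± 0.55). GH3.5 had 5.37, 1.52 and 0.209 CPM in L-Kyn tips, against 13.0, 1.85 and 10.3 CPM in mock tips (-1.81 ± 0.82), and GH3.6 had 4.24, 0 and 1.05 CPM in L-Kyn tips, against 6.37, 1.38 and 8.70 CPM in mock tips (-1.48 ± 0.79). In all 3, mock replicate 2 lay among the L-Kyn values while mock replicates 1 and 3 lay above all of them, and GH3.5 and GH3.17 had an unadjusted p under 0.05. They are all the tested members of the list of auxin inactivation, whose median was -1.48 with all mock libraries, -1.15 without mock replicate 3 and -1.83 against it alone, where 4 could be tested, and GH3.3 was under the filter.

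Among the 5 other auxin-responsive genes tested, none reached an unadjusted p under 0.05 and none was free of overlap. TMO7, a small transcription factor downstream of an ARF, had 86.0, 73.6 and 88.1 CPM in L-Kyn tips, against 126, 126 and 55.1 CPM in mock tips, and HAT2, an auxin-induced homeodomain gene, had 80.3, 69.0 and 73.2 CPM in L-Kyn tips, against 78.2, 50.3 and 32.9 CPM in mock tips. In both genes mock replicate 3 was the lowest library. The list's median changed sign with it, from the same 5 genes: -0.31 with all mock libraries, -0.61 without mock replicate 3 and 0.77 against it alone, or 0.58 with LRP1, at 0 counts there, set to its bound of 3 counts. LBD16, LBD18 and LBD29 are not in the table analysed.

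The 14 ARF genes tested, the transcription factors that act on auxin-responsive genes, had a median of -0.27. Of these, 1 had an unadjusted p under 0.05 and was lower (background 5.99%). That gene, ARF4, had 1.41, 3.79 and 1.46 CPM in L-Kyn tips, against 47.6, 73.8 and 0.644 CPM in mock tips, and so was high in mock replicates 1 and 2 and low in mock replicate 3 and all L-Kyn libraries. ARF5, needed for the embryonic root, had 18.1, 25.0 and 24.9 CPM in L-Kyn tips, against 32.7, 26.8 and 14.2 CPM in mock tips and overlapped, as did ARF7 and ARF19, which act in lateral root formation, at 0.32 and -0.36. ARF6 had 44.7, 42.5 and 41.2 CPM in L-Kyn tips, against 64.0, 53.1 and 53.5 CPM in mock tips, below mock in every library but at a small distance. Of the 6 receptor genes, AFB4 and AFB5 were above mock in all libraries (2 of 6, background 7.61%). AFB5 had 61.1, 84.2 and 67.8 CPM in L-Kyn tips, against 51.9, 36.0 and 57.7 CPM in mock tips, a log2 fold change of 0.54 ± 0.30. TIR1 had 76.1, 119 and 91.2 CPM in L-Kyn tips, against 44.3, 29.1 and 107 CPM in mock tips, where mock replicate 3 lay at the L-Kyn level, and no receptor gene reached an unadjusted p under 0.05.

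The genes of auxin synthesis itself, the step that L-Kyn inhibits in its enzymes, were low in counts, and none of the 6 tested had an unadjusted p under 0.05. TAA1, the aminotransferase, had 5.94, 6.83 and 5.86 CPM in L-Kyn tips, against 9.70, 16.6 and 5.48 CPM in mock tips (-0.76 ± 0.43, adjusted p 0.637). Mock replicate 3 was at the L-Kyn level, and against it alone the value was 0.16. YUC3 had 18.1, 31.9 and 20.09 CPM in L-Kyn tips, against 37.9, 13.4 and 35.1 CPM in mock tips, the highest level of the YUCCA genes tested, and overlapped. YUC8 had 1.41, 3.03 and 4.81 CPM in L-Kyn tips, against 4.85, 2.77 and 2.26 CPM in mock tips, and YUC9 had 1.98, 9.10 and 2.30 CPM in L-Kyn tips, against 3.64, 0.923 and 7.73 CPM in mock tips. TAR2 and YUC5 were under the filter, at no more than 2.77 CPM in any of the 6 libraries. The list's median was -0.21 with all mock libraries, where 5 of 6 genes were below 0 (background 54.0%). Against mock replicate 3 alone it was -0.23, where 4 genes could be tested and 2 were below 0 (background 48%).

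In the pathways that make tryptophan and the indolic compounds derived from it, 3 of 16 genes had an unadjusted p under 0.05 and were higher (background 3.06%), and 1 was lower (background 5.99%). SOT16, which adds sulphate in indole glucosinolate synthesis, had 143, 189 and 223 CPM in L-Kyn tips, against 109, 94.6 and 74.1 CPM in mock tips (1.00 ± 0.28), with no overlap. UGT74B1, the glucosyltransferase of that route, had 51.2, 75.1 and 85.0 CPM in L-Kyn tips, against 29.1, 52.1 and 30.3 CPM in mock tips, and TSB2, a tryptophan synthase subunit, had 10.5, 19.0 and 16.5 CPM in L-Kyn tips, against 8.49, 7.38 and 8.70 CPM in mock tips. ASB1, a subunit of anthranilate synthase, the entry to tryptophan synthesis, was lower in every library, with 14.1, 30.3 and 19.9 CPM in L-Kyn tips, against 37.6, 55.8 and 31.9 CPM in mock tips (-0.99 ± 0.32). CYP83B1, which steers indole-3-acetaldoxime into glucosinolates, had 64.2, 90.2 and 88.1 CPM in L-Kyn tips, against 19.4, 13.8 and 76.7 CPM in mock tips, so mock replicate 3 lay at the L-Kyn level and the other mock libraries far below. The list's median was 0.31 with all mock libraries, 0.54 without mock replicate 3 and -0.06 against it alone.

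Of the 14 auxin transport genes tested, PILS3 stood highest. PILS3, of the PIN-LIKES family that moves auxin at the endoplasmic reticulum, had 52.0, 123 and 71.1 CPM in L-Kyn tips, against 30.3, 24.9 and 15.5 CPM in mock tips (1.78 ± 0.43, adjusted p 0.113 by edgeR and 0.0143 by DESeq2), and PILS4, which neighbours it in the RefSeq table, had 17.0, 63.7 and 25.3 CPM in L-Kyn tips, against 8.49, 5.54 and 5.16 CPM in mock tips. Reads of near-identical stretches could be shared between them. PIN4, an efflux carrier of the root tip, was lower in every library, with 18.9, 8.34 and 14.2 CPM in L-Kyn tips, against 36.4, 32.8 and 25.1 CPM in mock tips (-1.14 ± 0.37, and -0.82 against mock replicate 3 alone). PIN2, the carrier of epidermis and cortex, had 278, 202 and 245 CPM in L-Kyn tips, against 191, 358 and 247 CPM in mock tips, with overlap. The uptake carriers AUX1 and LAX2 were below mock in every library by small distances: AUX1 had 38.7, 41.7 and 42.7 CPM in L-Kyn tips, against 50.0, 51.2 and 44.5 CPM in mock tips, and LAX2 had 55.7, 50.8 and 56.9 CPM in L-Kyn tips, against 62.2, 77.5 and 64.1 CPM in mock tips. The median of the transport genes was -0.19 with all mock libraries, -0.31 without mock replicate 3 and 0.21 against it alone. PILS5 was listed at 0 in mock replicate 3 and at 10.3 to 17.2 CPM in the other 5 libraries.

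In the list of the stem cell niche, 1 of 14 genes had an unadjusted p under 0.05 and was lower (background 5.99%), and 3 were below mock in every library (background 7.87%). BBM, a transcription factor of the PLETHORA family, was the first, with 7.07, 6.07 and 5.44 CPM in L-Kyn tips, against 22.1, 15.2 and 10.6 CPM in mock tips (-1.37 ± 0.57, and -0.78 against mock replicate 3 alone). PLT2 had 6.50, 7.58 and 6.07 CPM in L-Kyn tips, against 14.9, 13.8 and 9.34 CPM in mock tips (-0.93 ± 0.66), and RGF3, a peptide gene that maintains the meristem, had 38.2, 43.2 and 29.3 CPM in L-Kyn tips, against 96.4, 56.3 and 46.1 CPM in mock tips. PLT1, which acts together with PLT2, overlapped as given above, and SCR and JKD, which act in the ground tissue, had fold changes of 0.13 and -0.01. WOX5, the marker of the quiescent centre, was near the floor, with 0.566, 0.758 and 0.418 CPM in L-Kyn tips, against 0.606, 0.461 and 2.90 CPM in mock tips. The list's median was -0.51 with all mock libraries, -0.56 without mock replicate 3 and -0.33 against it alone.

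None of the 21 mitotic genes had an unadjusted p under 0.05 at 3 h, and their median was -0.07, beside -0.68 against mock replicate 3 alone and 0.14 without it, which differ in sign. CYCB1;1, a cyclin of the passage into mitosis, had 7.07, 15.2 and 5.44 CPM in L-Kyn tips, against 14.6, 13.8 and 23.2 CPM in mock tips (-0.98 ± 0.74). KN, the syntaxin of the cell plate, had 38.2, 83.4 and 41.0 CPM in L-Kyn tips, against 49.7, 66.0 and 52.8 CPM in mock tips. CYCB2;1, CYCB2;3 and HIK were below mock in every library and CDC20.1 above. Among 14 genes of DNA replication, MCM2, MCM7 and CDC45 had an unadjusted p under 0.05 and were lower (background 5.99%). CDC45, which unwinds DNA with the MCM helicase, had 6.22, 5.31 and 5.86 CPM in L-Kyn tips, against 16.1, 15.2 and 11.9 CPM in mock tips (-1.29 ± 0.39), and MCM2, a subunit of that helicase, had a log2 fold change of -0.88 ± 0.34 without overlap. PCNA2, a sliding clamp gene, was above mock in every library, with 93.9, 100.1 and 118 CPM in L-Kyn tips, against 69.7, 77.1 and 90.9 CPM in mock tips.

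Of 15 ethylene genes 3 had an unadjusted p under 0.05, all lower (background 5.99%), and 5 were below mock in every library (background 7.87%). EIN3, the main transcription factor of the response, had 117, 76.6 and 104 CPM in L-Kyn tips, against 128, 244 and 132 CPM in mock tips (-0.75 ± 0.30, and -0.41 against mock replicate 3 alone), and ACO1, an enzyme of the last step of ethylene synthesis, had 3.96, 4.55 and 4.81 CPM in L-Kyn tips, against 11.8, 11.5 and 9.34 CPM in mock tips (-1.29 ± 0.52). ACS2, of the step before it, was at or below 3.03 CPM in all 6 libraries. The list's median was -0.38, and -0.32 against mock replicate 3 alone. Among the 6 A-type response regulators, which are induced by cytokinin and dampen its signal, ARR8 was below mock in every library, with 56.8, 37.2 and 59.4 CPM in L-Kyn tips, against 84.6, 122 and 61.5 CPM in mock tips (-0.79 ± 0.32, and -0.26 against mock replicate 3 alone), while ARR4 and ARR5 overlapped at 0.22 and 0.18. That list's median was -0.29 with all mock libraries, -0.46 without mock replicate 3 and 0.07 against it alone.

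The genes of detoxification lay mostly above mock in L-Kyn tips. Of 17 tested, 8 had an unadjusted p under 0.05 and a higher value (background 3.06%), and 1 had a lower one (background 5.99%). Above mock in every library lay 7 (background 7.61%), and none was called at an adjusted p of 0.05. The median was 0.71 with all mock libraries, 1.30 against mock replicate 3 alone and 0.31 without it, so that its size moved with that library and its sign did not. Summed over the list, levels were 5585, 6803 and 6173 CPM in L-Kyn tips, against 4403, 4735 and 2739 CPM in mock tips.

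GSTU24, given above, had the smallest unadjusted p of all genes, 6.15e-06, and was the gene with the smallest adjusted p in DESeq2, 5.91e-06. GSTU19, the glutathione transferase with the most counts here, had 1881, 2369.8 and 2538 CPM in L-Kyn tips, against 1139, 1308 and 923 CPM in mock tips (1.01 ± 0.27), and GSTU25 had 419.9, 529 and 423 CPM in L-Kyn tips, against 259.9, 160.1 and 263 CPM in mock tips (1.01 ± 0.33). Glutathione transferases are close relatives, so reads may be shared among them. CYP81D11, a cytochrome P450 that responds to foreign compounds, had 182, 199 and 185 CPM in L-Kyn tips, against 91.6, 113 and 50.3 CPM in mock tips (1.15 ± 0.31). OPR1, an oxophytodienoate reductase, had 319, 501 and 422 CPM in L-Kyn tips, against 250.2, 196 and 187 CPM in mock tips (0.97 ± 0.28), and the glucosyltransferase gene UGT75B1 had 56.3, 72.8 and 58.4 CPM in L-Kyn tips, against 44.0, 32.3 and 25.1 CPM in mock tips. None of these 5 overlapped between the groups.

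UGT74E2, a glucosyltransferase that acts on the auxin indole-3-butyric acid, had 89.9, 367 and 215 CPM in L-Kyn tips, against 115, 93.2 and 40.6 CPM in mock tips, with L-Kyn replicate 1 among the mock values. DTX1, an efflux transporter, had 3.96, 24.3 and 15.1 CPM in L-Kyn tips, against 2.73, 6.92 and 0.322 CPM in mock tips, again with L-Kyn replicate 1 lowest of its group. GSTF7 was the lower member, with 0.566, 2.27 and 0.209 CPM in L-Kyn tips, against 3.94, 0.923 and 4.83 CPM in mock tips, and GSTF8 had 1808, 1456 and 1351 CPM in L-Kyn tips, against 1521, 2049 and 781 CPM in mock tips, with overlap.

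**Figure D3:**
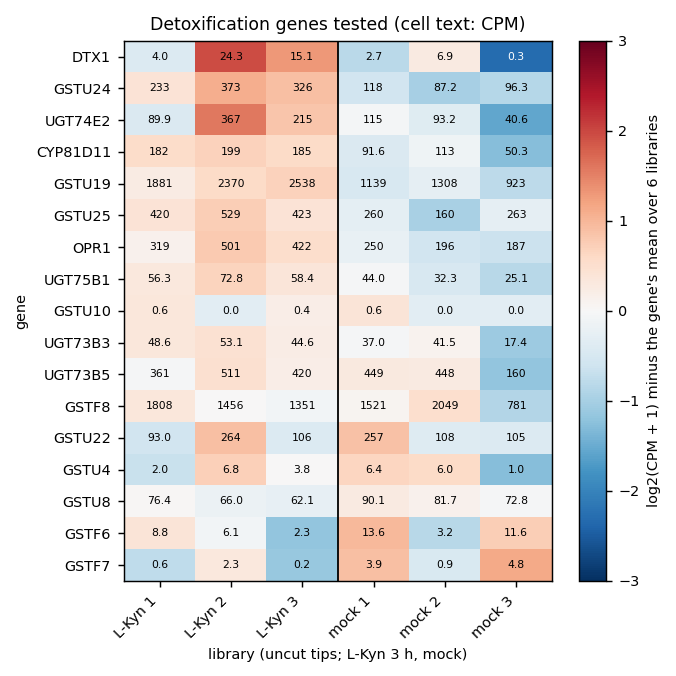
CPM of the 17 tested detoxification genes (rows, by fold change) in the L-Kyn libraries at 3 h and the mock libraries (columns); cell text gives CPM and colour gives log2(CPM + 1) minus the gene's mean over the 6 libraries. GSTU24, CYP81D11, GSTU19, GSTU25, OPR1, UGT75B1 and UGT73B3 are higher in all 3 L-Kyn libraries, and mock 3 is the lowest mock library in most of the rows.

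Lists of stress and temperature moved with mock replicate 3. Of 9 heat shock genes 2 had an unadjusted p under 0.05, both lower (background 5.99%), and none was free of overlap. HSP70, a chaperone gene, had 24.0, 19.7 and 27.8 CPM in L-Kyn tips, against 123, 95.5 and 26.7 CPM in mock tips, and HSP90.1 had 107, 60.7 and 74.9 CPM in L-Kyn tips, against 289, 138 and 62.2 CPM in mock tips, with mock replicates 1 and 2 high and mock replicate 3 at the L-Kyn level. The median was -1.01 with all mock libraries, -1.40 without mock replicate 3, and 1.30 against it alone (0.69 with genes at 0 counts set to the bound). The 8 genes of cold and dehydration did the same, with medians of -1.13, -1.39 and 0.28 (-1.18 and -0.05 at the bound for the first and the last). Without mock replicate 1 the heat shock median was -0.31 and that of cold and dehydration -0.61. ERD10, a dehydrin, had 66.5, 50.0 and 42.3 CPM in L-Kyn tips, against 176, 114 and 69.3 CPM in mock tips and did not overlap, with a log2 fold change of -1.18 and, against mock replicate 3 alone, -0.39. Medians of the 13 genes of touch and early stress were -0.77 (-0.61 at the bound) and 0.00 (0.14) against mock replicate 3 alone. With all mock libraries 11 of them had a fold change below 0 (background 54.0%). By edgeR 2 had an unadjusted p under 0.05 and were higher (background 3.06%), and 1 was lower (background 5.99%). Below mock in every library lay 1 gene (background 7.87%), and above it 1 (background 7.61%). The latter was CML39, a calmodulin-like gene, with 10.7, 7.58 and 7.32 CPM in L-Kyn tips, against 3.94, 3.23 and 3.54 CPM in mock tips. None of the 8 jasmonate genes had an unadjusted p under 0.05, and their median was 0.13 with all mock libraries, 0.12 without mock replicate 3 and 0.83 against it alone, or -0.10 there at the bound. JAZ1, a repressor of that pathway, had 18.4, 19.0 and 16.5 CPM in L-Kyn tips, against 26.7, 16.6 and 9.99 CPM in mock tips.

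**Figure D4:**
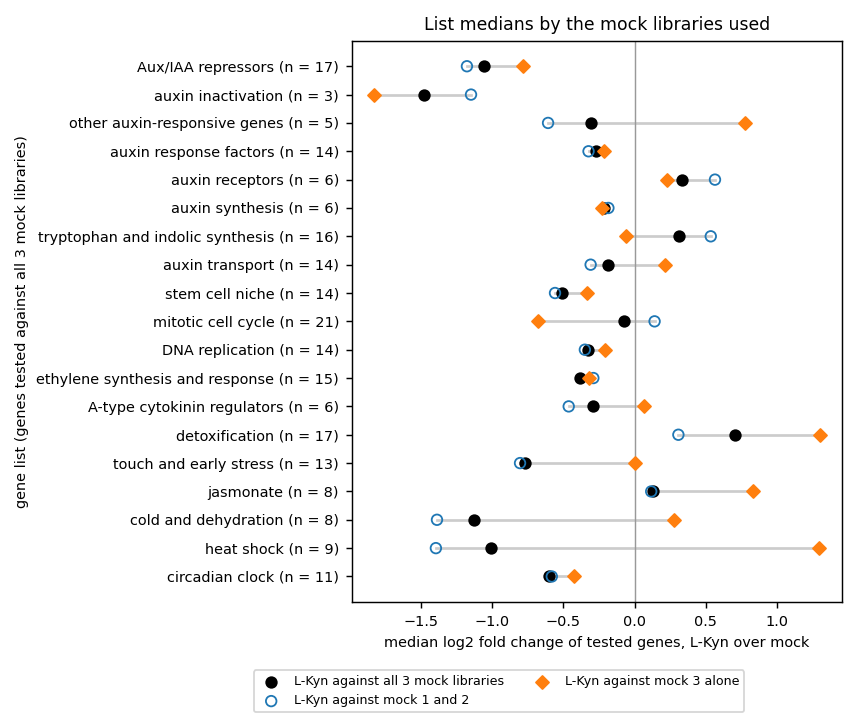
Median log2 fold change of L-Kyn over mock for 19 gene lists (rows, with the number tested), from the fit with all 3 mock libraries (black), without mock 3 (blue rings) and against mock 3 alone (orange diamonds); grey lines join the 3 values, and genes at 0 counts enter with their fitted value. Aux/IAA, auxin inactivation and clock lists lie below 0 in all 3, as do those of ARFs, auxin synthesis, stem cell niche, DNA replication and ethylene. Detoxification, receptors and jasmonate lie above 0 in all 3. The other lists, such as heat shock, cold and mitotic genes, change side, except touch and early stress, at 0.00 against mock 3 alone.

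Among the circadian clock genes, LHY lay above mock, and 8 of the 11 tested had a fold change below 0 (background 54.0%). The genes shown were chosen after their values were seen. LHY, given above, was about as high in each L-Kyn library as in the others and near the floor in each mock library. ELF4, an evening gene, was lower in every L-Kyn library, with 16.7, 15.2 and 11.7 CPM in L-Kyn tips, against 63.4, 27.2 and 37.1 CPM in mock tips (-1.56 ± 0.36), and TOC1, an evening repressor of LHY, had 32.8, 24.3 and 29.1 CPM in L-Kyn tips, against 62.8, 80.8 and 39.6 CPM in mock tips (-1.07 ± 0.33). BOA, a relative of the evening gene LUX, had 7.35, 8.34 and 3.14 CPM in L-Kyn tips, against 14.9, 17.1 and 9.99 CPM in mock tips, and LUX had 17.8, 8.34 and 17.2 CPM in L-Kyn tips, against 24.6, 24.5 and 19.98 CPM in mock tips. In all, 1 of 11 clock genes had an unadjusted p under 0.05 and was higher (background 3.06%), and 3 were lower (background 5.99%). In 6 clock genes all L-Kyn libraries lay below all mock libraries (background 7.87%). Against mock replicate 3 alone the values were 2.69 for LHY, -1.36 for ELF4 and -0.46 for TOC1. As mock tips carry no time in the labels, the hour of harvest cannot be told apart from L-Kyn for these genes. In L-Kyn uncut tips at 6 h, LHY had 1.35 and 1.44 CPM and ELF4 had 51.3 and 38.5 CPM in the 2 libraries.

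Transcripts of green tissue, which a root tip should lack, were present in some mock libraries and, at 6 h, in L-Kyn libraries. Summed over the 12 genes in the table they stood at 28.0, 37.9 and 28.9 CPM in L-Kyn tips at 3 h. In mock uncut tips the sums were 285, 120.4 and 34.5 CPM. The Rubisco genes RBCS1A, RBCS1B and RBCS3B were at 0 in mock replicate 3 and at 0 to 0.283 CPM in L-Kyn tips at 3 h. At 6 h RBCS1A had 147 and 95.4 CPM in L-Kyn uncut tips. Cut tips at 6 h had 102, 60.4 and 16.8 CPM of it with L-Kyn, against 39.4 and 81.7 CPM in mock. Of 10 green tissue genes tested in uncut tips at 3 h, 7 had an unadjusted p under 0.05 and were lower (background 5.99%). Their part in the other results was not tested. Mock replicate 3 has no counts of these Rubisco genes but 34.5 CPM over the list. The fold changes of IAA1, IAA19, GSTU24 and LHY against it alone were -2.45, -2.81, 1.68 and 2.69. In these genes the groups did not overlap with mock replicate 3 included, so the signs were set beforehand. Against it alone IAA7 and IAA8, also without overlap, had smaller values of -0.57 and -0.34. IAA28, given above, was higher in L-Kyn tips than in mock replicate 3. The fold changes of TAA1 and MEE38 were 0.16 and -0.16 against it alone, beside -0.76 and -3.25 with all mock libraries. The part of green tissue in these values was not tested. These genes were picked here after their values were seen.

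**Figure D5:**
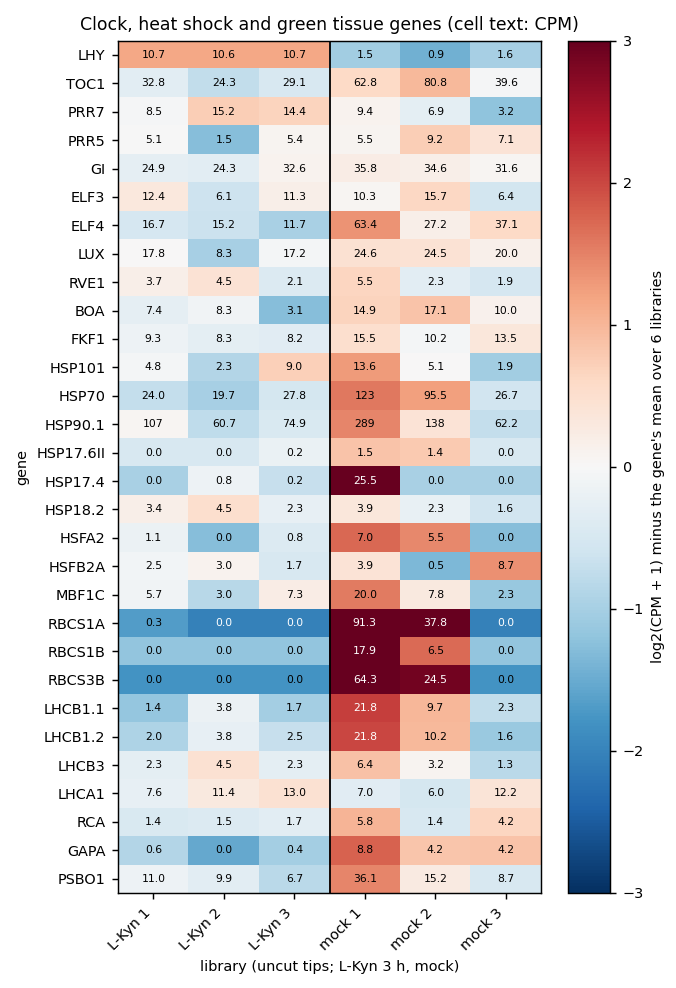
CPM of the tested clock (LHY to FKF1), heat shock (HSP101 to MBF1C) and green tissue (RBCS1A to PSBO1) genes in the L-Kyn libraries at 3 h and the mock libraries (columns); cell text gives CPM, and colour gives log2(CPM + 1) minus the gene's mean, cut off at 3 either way. Heat shock and Rubisco genes are high in mock 1 and mostly in mock 2, while LHY and ELF4 part the L-Kyn libraries from all mock libraries.

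Among markers of other cell types of the tip, a fold change below 0 was found for 7 of 7 tested root cap genes, 6 of 9 vascular genes, 4 of 5 genes of endodermis and ground tissue and 1 of 4 genes of root hair and epidermis (background 54.0%). The medians in that order were -0.40, -0.26, -0.14 and 0.36, and the part of these cell types in the other results was not tested. Root cap genes summed to 97.6, 147 and 62.6 CPM in L-Kyn tips, against 289, 55.8 and 121 CPM in mock tips, where replicates 1 and 2 lay on either side of the L-Kyn range. Vascular genes summed to 52.0, 56.1 and 48.3 CPM in L-Kyn tips, against 83.7, 46.1 and 59.0 CPM in mock tips. Root hair and epidermis genes lay between 83.1 and 111 CPM in L-Kyn tips and between 59.3 and 93.7 CPM in mock tips. Genes of endodermis and ground tissue lay between 9.90 and 12.1 CPM in L-Kyn tips and between 12.5 and 15.5 CPM in mock tips. These low sums parted by a small margin only, and 0 of the 5 tested genes were free of overlap. In whole tips fewer cells of a type and less RNA per cell cannot be told apart.

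By DESeq2, 20 genes with a symbol in the RefSeq table, at least 10 CPM in the higher group and no overlap hold the 10 highest and the 10 lowest log2 fold changes among the calls, and are named by size after their values were seen. Those higher in L-Kyn tips were LHY, UMAMIT33, ZIP2 and GSTU24, given above, and 6 others. PILS3, also called by DESeq2, has no symbol in that table. EXPA17, an expansin, which loosens cell walls, had 5.66, 14.4 and 12.3 CPM in L-Kyn tips, against 1.52, 0.461 and 0.644 CPM in mock tips (3.46 ± 0.82, adjusted p 0.00887 by DESeq2 and 0.107 by edgeR). XTH4, an enzyme that cuts and rejoins xyloglucan in the wall, had 54.0, 54.6 and 58.2 CPM in L-Kyn tips, against 21.5, 21.7 and 21.9 CPM in mock tips (1.36 ± 0.28). ABCG34, a membrane transporter, had 32.2, 64.5 and 55.9 CPM in L-Kyn tips, against 17.59, 19.4 and 17.398 CPM in mock tips. The cytochrome P450 genes CYP81D7 and CYP81D6 had log2 fold changes of 1.95 and 1.84, and may share reads. HDR, the last enzyme of the plastid isoprenoid route, had 58.0, 70.5 and 58.0 CPM in L-Kyn tips, against 27.9, 23.1 and 25.1 CPM in mock tips.

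On the lower side, mock replicate 3 lay between the L-Kyn libraries and the other mock libraries in 9 of the 10 genes, all but ELF4. KCS10, which builds long fatty acids in the epidermis, had 1.41, 2.27 and 3.77 CPM in L-Kyn tips, against 15.8, 17.5 and 6.77 CPM in mock tips (-2.35 ± 0.52). HSFA6B, a heat shock factor, had 1.13, 0.758 and 1.67 CPM in L-Kyn tips, against 18.5, 8.31 and 3.54 CPM in mock tips, and CYP71B23, a cytochrome P450, had 1.13, 2.27 and 1.46 CPM in L-Kyn tips, against 14.6, 12.5 and 3.54 CPM in mock tips. SARA1A, a small GTPase, had 1.98, 0.758 and 2.30 CPM in L-Kyn tips, against 17.3, 30.0 and 2.58 CPM in mock tips, and SGA2 had 30.5, 20.5 and 31.4 CPM in L-Kyn tips, against 125, 254 and 35.4 CPM in mock tips. CHR8, a chromatin remodeller, had 5.94, 0.758 and 2.93 CPM in L-Kyn tips, against 13.6, 23.5 and 12.2 CPM in mock tips, with mock replicate 3 close to mock replicate 1. The remaining lower genes were IND, SDG21 and ELF4, given above, and emb1692, at -1.79. Of the 118 genes 76 could be tested against mock replicate 3 alone, and 65 of those had the same sign there. The calls already used mock replicate 3 and the same L-Kyn libraries, so the signs are not independent of them. Genes at or near 0 in both mock replicate 3 and L-Kyn tips, such as RBCS1A and AT1G04684, could not be tested there. The share of like signs over all genes was not counted.

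L-Kyn was also given to cut tips. At 3 h the L-Kyn and mock libraries of cut tips are not compared here. At 6 h cut tips have mock libraries of their own that share none with the comparison above, though time and cut differ. By edgeR 0 of 16354 genes were called there (0%), with 1263 at an unadjusted p under 0.05 (7.72%) and 48 called by DESeq2. IAA1 had 3.35, 9.94 and 0 CPM in L-Kyn cut tips, against 16.0 and 11.3 CPM in mock cut tips, and a log2 fold change of -1.77 beside -2.33 in uncut tips at 3 h. GSTU19 had 3641, 2839.9 and 2640.0 CPM in L-Kyn cut tips, against 1359 and 1362 CPM in mock cut tips (1.16 beside 1.01). PILS3 had 1.46 beside 1.78, and GSTU24 had 0.77 beside 1.63. List medians were -0.52 for Aux/IAA genes and 0.81 for detoxification, beside -1.05 and 0.71 in uncut tips. Other medians had the opposite sign in cut tips: 0.57 beside -0.60 for the clock, 0.51 beside -1.13 for cold and dehydration, 0.18 beside -0.38 for ethylene, 0.97 beside -0.21 for auxin synthesis, 0.12 beside -0.19 for auxin transport and -0.01 beside 0.31 for tryptophan and indolic synthesis.

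The mitotic genes lay lower in cut tips at 6 h. All 21 had a value below 0 in cut tips at 6 h, where 50.4% of all genes did, with a median of -1.78, beside -0.07 in uncut tips at 3 h. CYCB1;1 had 2.15, 0 and 0.480 CPM in L-Kyn cut tips, against 10.5 and 3.61 CPM in mock cut tips. LHY had 1.196, 3.06 and 2.40 CPM in L-Kyn cut tips, against 1.23 and 2.26 CPM in mock cut tips, a log2 fold change of 0.17 beside 2.91. A test of the difference between the effects called 0 of 16354 genes by edgeR, with 1351 at an unadjusted p under 0.05. It was not run with another tool.

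L-Kyn uncut tips at 6 h share their mock libraries with the 3 h tips, so that only their levels are given. IAA1 had 4.39 and 5.75 CPM in their 2 libraries, below all mock libraries, and IAA4 had 4.05 and 9.49 CPM. GSTU24 had 231 and 236 CPM and UGT74E2 had 282 and 398 CPM, above all mock libraries. IAA2 had 19.2 and 23.9 CPM, with 1 library at the lowest mock level and 1 between the mock libraries, and IAA7 had 133 and 119 CPM, unlike its low values at 3 h. RBCS1A had 147 and 95.4 CPM and ARF4 had 62.8 and 37.4 CPM, and both were thus present as in mock replicates 1 and 2. The title of replicate 1 of these libraries says uncut and its source field cut, and the title was used.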

How the data were processed

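RNA of root tips was sequenced from transcript 3′ ends with the Lexogen QuantSeq kit, per the labels' protocols. The deposited table holds read counts per locus, not normalised, and the submitters' processing notes list Bowtie2, HTSeq, DESeq2 and TAIR10, with versions not given in the sources used here. It has 22093 loci, each with at least 5 counts in all, and 3 summary lines that were dropped. In the 6 libraries compared these lines took 46.8% to 75.0% (low alignment quality), 5.11% to 10.4% (no feature) and 0.140% to 0.294% (ambiguous) of the total. Low alignment quality took 60.7%, 53.1% and 46.8% in the L-Kyn libraries, against 61.9%, 75.0% and 62.3% in the mock libraries. Every mock library thus lay above every L-Kyn library, and the part of this in the results was not tested. RefSeq's TAIR10.1 gene table gave symbols, and 21793 loci were found in it. As the builds differ, no coordinates were used.

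The main test was edgeR 4.0.16 (quasi-likelihood, TMM factors, expression filter by group, Benjamini-Hochberg adjustment at 0.05) on the raw counts, fitting group means over 18 libraries with 11 residual degrees of freedom, in R 4.3.3 with limma 3.58.1. DESeq2 1.42.0 was an alternative. Fold changes are fitted values with standard errors. The 24 gene lists (344 entries) were described by counts and medians without a set test, and 7 entries whose symbol did not match the reference were dropped. Members, lists and comparisons were chosen with earlier results of these data known. The rule for named genes took the 10 higher and 10 lower called genes with the largest change, at least 10 CPM, a symbol and no overlap, up to 4 called members of a list, and a panel of 27 genes known from auxin biology, the niche and mitosis. As no gene was called in the main test, the rule gave the panel only, and all other genes were chosen after their values were seen. Some panel members are not reported here. Replicate numbers did not pair the libraries. On simulated counts for the main comparison (15867 genes) edgeR recovered 6 of 100 genes changed 2-fold and 75 of 100 changed 4-fold, with 4 false calls, and against mock uncut replicate 3 alone (15063 genes) 0 and 11 of 100. The changed genes in the simulation had a mean of at least 10 CPM, and apart from those changes all groups had the same mean for each gene. Recovery was thus not measured for lower genes, or with a mock library that stands apart. Figures were drawn with Python 3.11.15, pandas 2.3.3 and matplotlib 3.10.9.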

Additional observations from a re-analysis of the deposited data

Results flagged for a closer look

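In 5 of the genes described, the L-Kyn libraries lay all on one side of mock in uncut tips at 3 h and all on the other side in cut tips at 6 h. The value given is the log2 fold change in uncut tips minus that in cut tips, with the adjusted p of edgeR's test of that difference over all genes. None passed 0.05, and time and cut differ together in this difference. The share of all genes that change sides in this way was not counted. With so few libraries in cut tips, full separation can also arise without a change. For GMI1 the difference was -5.01 (adjusted p = 0.0556), with 19.6, 42.1 and 23.0 CPM in L-Kyn cut tips, against 9.23 and 5.87 CPM in mock cut tips. For XTH4 it was 2.14 (adjusted p = 0.295), with 30.9, 34.4 and 44.1 CPM in L-Kyn cut tips, against 61.6 and 63.7 CPM in mock cut tips. For BBM it was -1.82 (adjusted p = 0.607), with 8.13, 7.65 and 10.1 CPM in L-Kyn cut tips, against 6.77 and 5.87 CPM in mock cut tips. For ASB1 it was -1.27 (adjusted p = 0.542), with 40.4, 47.4 and 49.9 CPM in L-Kyn cut tips, against 37.6 and 37.9 CPM in mock cut tips. For TSB2 it was 1.41 (adjusted p = 0.560), with 8.37, 6.88 and 7.19 CPM in L-Kyn cut tips, against 8.62 and 13.1 CPM in mock cut tips. In L-Kyn uncut tips at 6 h, which by their titles differ from the 3 h tips in time and not in the cut, GMI1 had 47.6 and 40.2 CPM, against 7.88, 12.5 and 8.70 CPM in mock tips, and XTH4 had 18.22 and 10.3 CPM, against 21.5, 21.7 and 21.9 CPM in mock tips, also on the other side of mock from the 3 h tips. BBM had 8.77 and 12.6 CPM, against 22.1, 15.2 and 10.6 CPM in mock tips, ASB1 had 45.9 and 73.9 CPM, against 37.6, 55.8 and 31.9 CPM in mock tips, and TSB2 had 12.1 and 10.1 CPM, against 8.49, 7.38 and 8.70 CPM in mock tips.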

How the results depend on the processing

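The main count of 0 calls held with RLE factors, the stricter filter (mean of 5 CPM), only the 6 libraries compared, and without L-Kyn uncut 6 h replicate 1 in the shared fit. DESeq2 called 118 genes, edgeR without a filter 24 and edgeR without L-Kyn cut 3 h replicate 2 in the shared fit 3 (GSTU24, GMI1 and AT4G15630). A term for the table's column order called 5 (GRP5, AT4G29020, AT5G01870, Hrd1A and EDL2), or 22 with L-Kyn cut 3 h replicate 2 also left out. Leaving out 1 library at a time gave 0 to 452 calls, the 452 without mock uncut replicate 3. Leaving L-Kyn cut 3 h replicate 2 or L-Kyn uncut 6 h replicate 1 out of the shared fit was added after seeing the data. Replicate numbers did not pair the libraries (correlations of deviations of 0.04, -0.20 and -0.07), and the replicate block gave 0 calls in the fit of 18 libraries, in that of the 6 and in cut tips at 6 h.

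Against mock uncut replicate 3 alone the 3 calls became 1190 with only those 4 libraries in the fit, 40 in DESeq2 (39 of them higher), 10 without a filter, 2 with L-Kyn cut 3 h added, and 1 to 2 with an L-Kyn library left out. In cut tips at 6 h, 0 calls became 48 in DESeq2 and 1 without a filter. The cause of these shifts was not tested.

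Medians of the lists also moved with the column-order term, which rests on mock uncut replicate 3. With it they were 0.80 for other auxin-responsive genes, -0.12 for ARFs, -0.0206 for tryptophan and indolic synthesis, 0.21 for auxin transport, -0.25 for the stem cell niche, -0.67 for mitotic genes, 1.31 for detoxification, 0.00 for touch and early stress, 1.07 for jasmonate, 0.14 for cold, 1.32 for heat shock and -0.41 for the clock. With L-Kyn cut 3 h replicate 2 also left out they were 0.81, -0.12, -0.018, 0.22, -0.25, -0.66, 1.37, 0.00, 0.84, 0.15 and 1.33 for the same lists up to heat shock, and 0.16 for auxin synthesis. The jasmonate median was -0.20 without a filter and that of receptors 0.14 with the stricter one. With only the 6 libraries the medians were -0.56 for auxin synthesis and -0.32 for the stem cell niche, which was -0.17 with the replicate block. Leaving out 1 library at a time gave -2.87 to -1.11 for auxin inactivation, 0.24 to 0.56 for receptors, -0.41 to -0.18 for ARFs, -0.71 to 0.31 for auxin synthesis, -0.66 to -0.39 for the clock, 0.31 to 1.02 for detoxification, -0.46 to -0.18 for ethylene, -0.50 to 0.14 for mitotic genes, -0.61 to 0.20 for other auxin-responsive genes, -0.58 to -0.054 for the stem cell niche, -0.98 to -0.20 for touch and early stress, -1.43 to -0.31 for heat shock and -1.39 to -0.61 for cold and dehydration. The values nearest 0 of the last 2 were without mock uncut replicate 1.

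Some fold changes turned sign. With the column-order term RBCS1A was 1.75, TAA1 0.16 and YUC8 0.48, and with L-Kyn cut 3 h replicate 2 also left out 1.72, 0.16 and 0.48. Leaving out 1 library at a time gave -0.67 to 0.33 for YUC8, -0.95 to 0.68 for YUC9, -0.35 to 0.15 for PLT1 and -0.33 to 0.15 for PIN2. AT1G04684 has no counts in mock uncut replicate 3 or in L-Kyn tips and gives no value with that term. Of the other values of named genes 1091 kept their direction and their side of the threshold, 71 passed the threshold in place of missing it, and 6 no longer passed. Depth limits low genes most in L-Kyn uncut 3 h replicate 2, where 3 counts are 2.27 CPM.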

Other observations

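The DESeq2 calls that lay higher in L-Kyn tips held further genes in no list, chosen here after their values were seen. CYP89A5, a cytochrome P450, had 108, 128 and 139 CPM in L-Kyn tips, against 63.1, 51.7 and 41.9 CPM in mock tips, and STE1, a sterol desaturase, had 88.2, 102 and 97.7 CPM in L-Kyn tips, against 44.0, 25.8 and 49.9 CPM in mock tips. AT3G45310 had 116, 105 and 115 CPM in L-Kyn tips, against 55.2, 53.1 and 39.0 CPM in mock tips, and AT5G51500 had 22.3, 34.9 and 24.9 CPM in L-Kyn tips, against 3.94, 4.15 and 8.70 CPM in mock tips. In these 4 genes all L-Kyn libraries lay above all mock libraries. AT1G05675 had 39.3, 246 and 82.4 CPM in L-Kyn tips, against 31.2, 11.998 and 23.2 CPM in mock tips, AT2G39530 had 5.66, 51.6 and 10.3 CPM in L-Kyn tips, against 3.64, 2.77 and 5.48 CPM in mock tips, and AT3G45730 had 7.92, 33.4 and 28.7 CPM in L-Kyn tips, against 4.85, 6.46 and 5.16 CPM in mock tips, where L-Kyn replicate 2 was the highest library and L-Kyn replicate 1 the lowest of its group. In cut tips at 6 h, AT3G45730 had 45.2, 22.2 and 30.7 CPM in L-Kyn tips, against 4.93 and 1.81 CPM in mock tips, and AT2G39530 had 33.5, 27.5 and 42.7 CPM in L-Kyn tips, against 5.54 and 4.52 CPM in mock tips.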
